A study of Mus musculus with 48 samples.

Results

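Diacylglycerol kinase inhibitor II (DKI) was compared with vehicle in STHdhQ111 cells, a mouse striatal progenitor line that carries mutant huntingtin as a knock-in. The comparison takes 6 of the 48 RNA-Seq samples of the study, 3 with 10 µM DKI and 3 with the DMSO vehicle, chosen by their labels alone. The cells came from C57BL/6 mice, were grown at 33 °C and were held for 24 h in serum-free medium with compound or vehicle, so that every value below is from cells under serum withdrawal. The 48 samples cover 16 conditions in triplicate, namely 14 compounds and vehicle in STHdhQ111 cells and vehicle in the STHdhQ7 line. Meclizine and cyproheptadine, also given to STHdhQ111 cells at 10 µM for 24 h with 3 samples each, were set beside DKI to show where its response differed. Each line is a single immortalized line. The samples of a condition were collected at separate times or days, but the labels do not say whether they came from independent cultures. The p-values therefore measure the spread between such collections within a condition, estimated over all 16 conditions and both lines.

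Diacylglycerol kinases phosphorylate the membrane lipid diacylglycerol to phosphatidic acid. Diacylglycerol recruits protein kinase C, protein kinase D and the Ras activators of the RasGRP family, and phosphatidic acid is a precursor of membrane lipids and a signal in its own right. An inhibitor of these kinases is therefore known as a means to shift the balance between both lipids, and the question put to the RNA was which transcripts changed when the inhibitor was present.

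Each value is a normalized abundance deposited by the authors on a log2 scale, so that differences are log2 fold changes. The total of the linear values differed by at most 1.05-fold between the 6 samples, and the correlation across genes between replicates of DKI or of vehicle was 0.998 to 0.999. The collection slots were not the same. Vehicle replicates 1, 2 and 3 were collected on days 1, 2 and 3, whereas DKI replicate 1 was collected on day 3 at the time of day numbered 1, and no DKI sample was from day 1. DKI replicates 2 and 3 share the day and time of vehicle replicates 2 and 3. DKI replicate 1 lay farther from the vehicle mean than the others, with a root mean square difference over genes of 0.370 against 0.264 and 0.304 for replicates 2 and 3. It was the highest DKI sample for 69.7% of the genes called higher and the lowest for 65.6% of those called lower. Whether its slot bears on this was not tested, and the values without it are given where they matter.

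Of the markers of a neural progenitor, Nes (nestin) averaged 4.96 and Sox2 4.81 in the vehicle samples, whereas Vim (vimentin) averaged 15.42. Whether these values are scaled by transcript length is not given, so they are not used to rank the genes. Of 9 markers of striatal neurons, 3 were tested and 5 lay below the minimum for testing, among them Drd1, Gad1 and Bcl11b. The 3 tested were Foxp1, which averaged 9.99 in the vehicle samples and is not limited to neurons, Penk (2.46) and Ppp1r1b (1.93). Mesenchymal markers were present, with Col1a1 at 14.64 and S100a4 at 12.73 in the vehicle samples. The summed level of the 6 mesenchymal markers tested was 15.46 to 15.61 in the vehicle samples and 14.56 to 14.85 in the DKI samples. That of the 6 progenitor markers tested was 15.39 to 15.52 and 14.8 to 15.06. These are sums of linear values, so the highest genes set them, and the progenitor sum is nearly all Vim, which averaged 14.93 with DKI. Of the other progenitor markers tested, Nes, Sox2, Notch1 and Hes1 averaged lower with DKI, and Pax6 did not (2.81 with vehicle, 2.86 with DKI). In a bulk sample, fewer cells of a type and less RNA per cell cannot be told apart.

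DKI changed the abundance of a large share of the transcriptome, mostly by small amounts. Of 13409 genes tested, 5673 were called at an adjusted p under 0.05 by limma with Benjamini-Hochberg adjustment, which is 42.3%. There were 2735 genes higher in DKI (20.4%) and 2938 lower (21.9%). The median difference over all genes was -0.01, and 4556 of the called genes differed by less than 0.5 on the log2 scale. Changes beyond 1 were uneven in direction, since 83.5% of the 133 such genes were higher and 22 were lower, and the 10 genes beyond 2 were all higher. Replicates 2 and 3 of DKI and vehicle share their slots. With replicate 1 of both left out (the matched slots), 3808 genes were called. The samples of the other conditions stayed in that fit. Every DKI sample lay above every vehicle sample for 24.8% of genes and below for 26.7%.

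**Figure D1:**
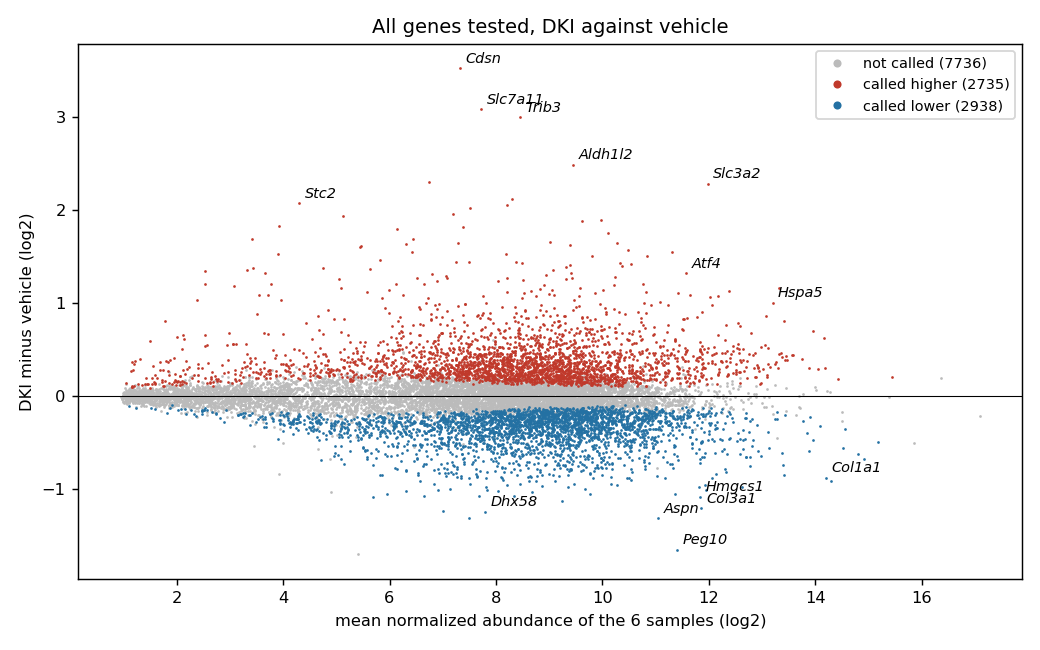
Difference between DKI and vehicle (log2, vertical axis) against the mean normalized abundance of the 6 samples (log2, horizontal axis), with 1 point for each of the 13409 genes tested. Red points are the 2735 genes called higher, blue points the 2938 called lower, and the largest changes, such as Cdsn at 3.53, lie on the upper side.

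Among genes whose average abundance was 6 or more and whose groups did not overlap, the 12 largest rises were led by Cdsn, which encodes corneodesmosin, an adhesion protein best known from skin. Its gene occupies positions 35552128 to 35557180 of chromosome 17 (GRCm38, plus strand). It measured 5.55, 5.69 and 5.44 in the vehicle samples and 9.51, 8.70 and 9.08 with DKI. The lowest DKI sample was thus about 3 log2 units above the highest vehicle sample, and the difference was 3.53 ± 0.24 (SE, limma, adjusted p = 2.4e-14), or 11.5-fold. Slc7a11 is the cystine-glutamate exchanger of the plasma membrane. It measured 6.24, 6.25 and 6.06 with vehicle and 9.66, 8.96 and 9.18 with DKI, a difference of 3.09 ± 0.23 (adjusted p = 2.4e-13). Slc3a2, the heavy chain with which that exchanger and other amino acid transporters pair, measured 10.85, 10.82 and 10.84 with vehicle and reached 13.53, 12.83 and 12.99 (2.28 ± 0.15, adjusted p = 1e-14). Trib3, a pseudokinase of the stress response on chromosome 2 from 152337422 to 152344032, measured 7.06, 6.96 and 6.83 with vehicle and 10.13, 9.77 and 9.95 with DKI. Its difference was 3.00 ± 0.21 (adjusted p = 3.8e-14). The other genes of this set were Aldh1l2 (2.49), a mitochondrial folate enzyme, Cth (2.30), which makes cysteine from cystathionine, Chac1 (2.12), which degrades glutathione, the transcription factors Atf3 (2.06) and Ddit3 (1.90), the thioesterase Acot2 (2.02), the metalloreductase Steap1 (1.96) and the phosphatase subunit Ppp1r15a (1.89). Stc2, of the stress response, also rose by more than 2 but lay below that level.

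The 12 largest falls chosen in the same way were smaller and came from more varied genes. Peg10, an imprinted gene derived from a retrotransposon, lies on chromosome 6 from 4747306 to 4760517 on the plus strand and fell most of these. It measured 12.46, 12.07 and 12.14 with vehicle and 9.99, 10.96 and 10.77 with DKI, a difference of -1.65 ± 0.15 (limma, adjusted p = 3.6e-11), and -1.36 without DKI replicate 1. Aspn and Prelp, small leucine-rich proteins of the extracellular matrix, fell by 1.31 and 1.23, and Dpt, another matrix protein, fell by 1.08. Aspn was tight in the vehicle samples at 11.70, 11.71 and 11.69 and spread in the DKI samples at 10.01, 10.94 and 10.23. Col3a1, the chain of type III collagen, measured 12.51, 12.39 and 12.48 with vehicle and 10.98, 11.53 and 11.23 with DKI. The others were the orphan receptor Mrgprf (-1.31), Sertad4 (-1.13), the growth factor gene Tgfb3 (-1.08), Nrep (-1.07), the sterol enzyme gene Hmgcs1 (-1.08) and the antiviral genes Dhx58 (-1.24) and Irf7 (-1.06).

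**Figure D2:**
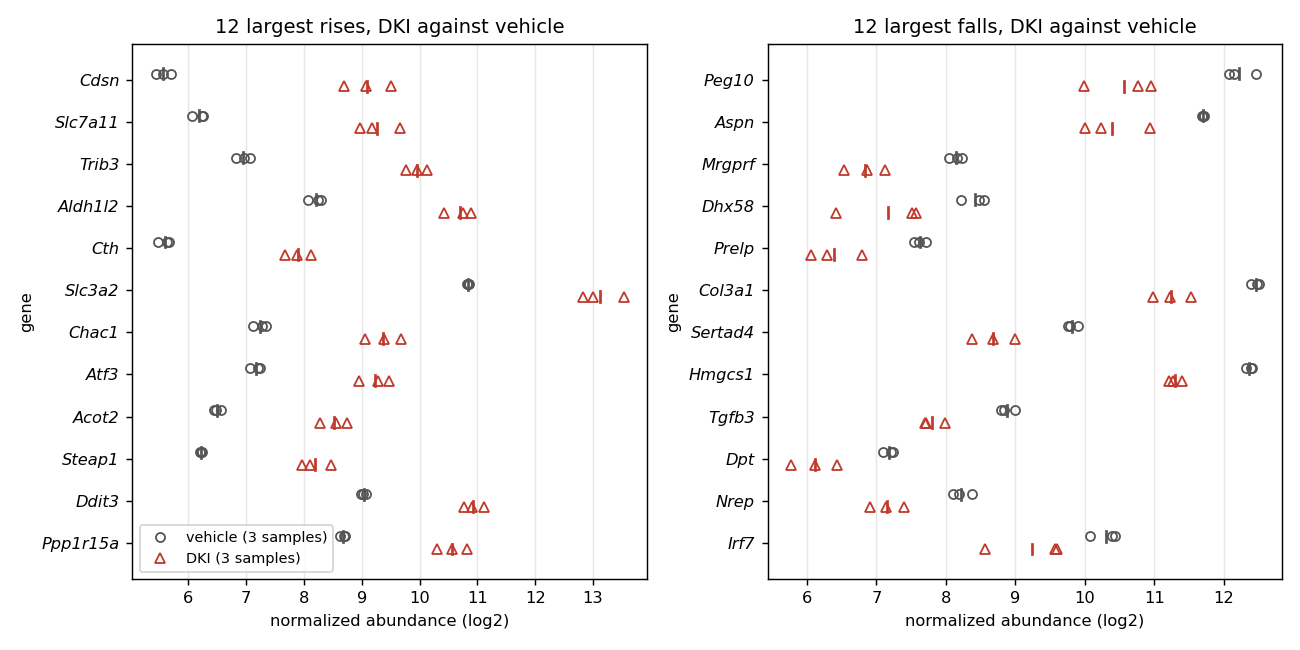
Normalized abundance (log2, horizontal axis) in each of the 3 vehicle samples (grey circles) and 3 DKI samples (red triangles) for the 12 genes that rose most and the 12 that fell most, with the mean of each group as a vertical tick. The genes were chosen to have groups that do not overlap, and the DKI samples of Dhx58 and Irf7 are more spread than the vehicle samples.

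The targets named by the compound were measured first among the lipid signalling genes. Diacylglycerol kinases are encoded by a family of genes that differ in their regulatory domains. Of the 10 listed, 6 were tested, and Dgkb, Dgkg, Dgki and Dgkk lay below the minimum. Dgkd, which lies on chromosome 1 from 87853287 to 87945180, measured 9.05, 9.06 and 8.99 with vehicle and 9.56, 9.30 and 9.59 with DKI. It was called higher by 0.45 ± 0.07 (limma, adjusted p = 4.8e-06). Dgkh was called higher by 0.19 ± 0.07 (adjusted p = 0.037), a call lost without DKI replicate 1 (0.16, adjusted p = 0.133). Dgka (-0.05), Dgke (-0.05), Dgkq (-0.01) and Dgkz were not called, and Dgka overlapped between groups at 6.57, 6.74 and 6.42 with vehicle and 6.55, 6.54 and 6.51 with DKI. The RNA says nothing of the activity of these enzymes.

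Among 32 genes of the enzymes that make or use diacylglycerol and phosphatidic acid, 6 were higher and 9 lower, a share in each direction near that of all genes. Dgat2, which turns diacylglycerol into triglyceride, rose by 0.68 ± 0.10 (limma, adjusted p = 3.4e-07), from 6.66, 6.77 and 6.99 to 7.64, 7.36 and 7.43. Agpat5, an acyltransferase that makes phosphatidic acid, rose by 0.53. Lpin1, a phosphatase that makes diacylglycerol from phosphatidic acid, fell by 0.60 ± 0.07 (adjusted p = 1.1e-08), from 9.31, 9.34 and 9.30 to 8.79, 8.68 and 8.66. The phospholipase C gene Plcd1 fell by 0.53. Of 15 genes of proteins that bind diacylglycerol, 1 was higher and 5 lower. Prkd2, a protein kinase D, fell by 0.41 and Prkca, a classical protein kinase C, by 0.28, whereas with matched slots 1 of the 15 was lower and Prkca was at -0.16 (adjusted p = 0.134).

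Of 25 immediate-early genes and feedback genes of the ERK pathway, 8 were higher and 5 lower, against 20.4% and 21.9% of all genes. Dusp4, a phosphatase that acts on ERK, rose from 4.67, 4.72 and 4.61 to 6.54, 5.93 and 6.36 (1.61 ± 0.16, limma, adjusted p = 2.2e-10). Myc rose from 8.57, 8.80 and 8.65 to 10.34, 9.85 and 10.08 (1.42 ± 0.12, adjusted p = 2e-12). Fosl1, an AP-1 subunit, rose by 1.01, and Etv5 by 0.77. In the other direction Fos (-0.27), Egr1 (-0.34), Egr2 (-0.36) and Fosl2 (-0.54) were lower with DKI.

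The integrated stress response is the program in which phosphorylation of the initiation factor eIF2 lets the transcription factor ATF4 be translated, and ATF4 then raises genes of amino acid supply. Of 21 regulators and effectors of this response that were tested, 19 were higher with DKI and 2 lower, with a median difference of 1.29 against -0.01 for all genes. Atf4 itself, on chromosome 15 from 80255184 to 80257541, measured 10.81, 10.95 and 10.97 with vehicle and 12.45, 12.02 and 12.23 with DKI (1.32 ± 0.09, limma, adjusted p = 2.5e-14). Ddit3, which encodes CHOP, rose from 8.99, 9.03 and 9.08 to 11.12, 10.77 and 10.90. Ddit3 overlaps Mars on the other strand, and the strand setting of the counting is not stated, so their reads may not be fully separated. Atf3 rose from 7.20, 7.06 and 7.24 to 9.47, 8.95 and 9.27 (2.06 ± 0.14). Stc2, which encodes a secreted glycoprotein, was low in vehicle at 3.36, 3.21 and 3.23 and reached 5.68, 5.05 and 5.30. The 2 lower genes encode eIF2 kinases, Eif2ak3 (-0.18) and Eif2ak4 (-0.15). Without DKI replicate 1, and with matched slots, 19 of the 21 were still called higher.

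The enzymes of amino acid synthesis and one-carbon metabolism moved in the same direction. Of 23 genes of serine, folate and amino acid synthesis, 18 were higher and none lower, with a median of 0.90. They cover the serine pathway (Phgdh 0.90, Psat1 0.83, Psph 1.63), the mitochondrial folate pathway (Shmt2 1.55, Mthfd2 1.51, Mthfd1l 0.99, Aldh1l2 2.49), proline synthesis (Aldh18a1 1.20, Pycr1 1.44) and asparagine synthetase (Asns 1.65). Aldh1l2 measured 8.29, 8.24 and 8.07 with vehicle and 10.89, 10.43 and 10.76 with DKI. Asns measured 9.40, 9.45 and 9.51 with vehicle and 11.33, 10.90 and 11.10 with DKI. The cytosolic folate enzymes rose less (Shmt1 0.51, Mthfd1 0.29). Glul, which makes glutamine, was at -0.11 and was not called.

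Of 18 amino acid transporters, 12 were higher and 1 lower (Slc43a2, -0.33), with a median of 0.74. Beside Slc7a11 and Slc3a2, the glycine transporter gene Slc6a9 rose from 9.70, 9.70 and 9.71 to 11.47, 11.08 and 11.26 (1.57 ± 0.12). Slc7a5, the large neutral amino acid transporter, rose by 1.51, the cationic transporter Slc7a1 by 1.43, and the serine transporter Slc1a4 by 1.26. The glutamine transporters Slc38a1 and Slc1a5 rose by 0.93 and 0.60.

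The aminoacyl-tRNA synthetases, which charge tRNAs with amino acids, separated by compartment. Of 20 cytosolic synthetase genes 17 were higher and 1 lower (Qars, -0.11), with a median of 0.74, whereas of 17 mitochondrial ones 7 were higher and 2 lower, with a median of 0.11. Wars rose most, from 8.68, 8.59 and 8.57 to 10.11, 9.85 and 10.04 (1.39 ± 0.09, limma, adjusted p = 1e-14). The cytosolic exceptions Hars and Kars were at 0.10 and -0.02 and were not called. The largest mitochondrial difference was 0.49, for Nars2. The difference between both lists was not tested.

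The C/EBP-ATF response element, with the letters TGATGNAA, is the site that ATF4 and its partners are known to bind. It was searched on both strands in the RefSeq promoter windows of GRCm38.p6, from 250 bases before to 50 bases after each start. Of 10247 tested genes with a window, 2.8% held it. It was found in 7 of 20 stress response regulators with a window (35%), 3 of 17 synthesis genes (17.6%), 3 of 13 transporters (23.1%) and 5 of 12 cytosolic synthetases (41.7%). A match describes the letters and does not show binding. The stretches of 96 bases shown here lie before the start of 6 genes of these lists that rose by more than 1, chosen after their values were seen, are printed along the strand of the gene, and have the match in capitals. TTGCATCA and TTTCATCA are the element read on the other strand, and Slc7a11 holds it on both.
Slc7a11 (chr3:50443614-50443709, minus strand, up 3.09): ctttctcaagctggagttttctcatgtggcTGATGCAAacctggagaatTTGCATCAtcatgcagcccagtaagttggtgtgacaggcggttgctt
Chac1 (chr2:119351005-119351100, plus strand, up 2.12): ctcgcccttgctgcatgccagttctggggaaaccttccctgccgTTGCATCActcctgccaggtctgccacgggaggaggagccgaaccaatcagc
Atf3 (chr1:191183392-191183487, minus strand, up 2.06): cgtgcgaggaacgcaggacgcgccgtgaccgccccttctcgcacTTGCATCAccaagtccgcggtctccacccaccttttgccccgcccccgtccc
Asns (chr6:7693210-7693305, minus strand, up 1.65): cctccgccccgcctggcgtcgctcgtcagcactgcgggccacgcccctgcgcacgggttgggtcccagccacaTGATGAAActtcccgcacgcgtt
Pycr1 (chr11:120643800-120643895, minus strand, up 1.44): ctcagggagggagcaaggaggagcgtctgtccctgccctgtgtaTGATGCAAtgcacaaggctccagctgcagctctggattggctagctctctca
Gars (chr6:55037905-55038000, plus strand, up 1.09): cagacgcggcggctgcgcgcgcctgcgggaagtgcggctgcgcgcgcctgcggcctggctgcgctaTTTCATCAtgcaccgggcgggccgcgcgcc

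The chaperone lists are given by compartment, and the differences between them were not tested. Hspa5 encodes BiP, the main chaperone of the endoplasmic reticulum. It measured 12.66, 12.71 and 12.71 with vehicle and 14.03, 13.53 and 13.54 with DKI (1.01 ± 0.09, limma, adjusted p = 3.9e-12). Of 24 endoplasmic reticulum genes 12 were higher and 3 lower, with a median of 0.18. The transcription factor genes Atf6 and Xbp1 rose by 0.83 and 0.34, Hyou1 by 0.76 and Herpud1 by 0.62, while the folding enzymes Pdia4 (0.07), Calr (0.11) and Dnajb11 (0.03) were not called. Of 15 mitochondrial chaperones and proteases 10 were higher and 2 lower, with a median of 0.33. Hspa9, the mitochondrial HSP70, rose by 1.13, the protease Lonp1 by 1.02 and the chaperonin Hspd1 by 0.98, and Hspd1 measured 11.67, 11.54 and 11.51 with vehicle and 12.68, 12.46 and 12.51 with DKI. Of 19 heat shock chaperones 5 were higher and 6 lower, near the shares of all genes. The inducible Hspa1b fell from 10.11, 9.92 and 10.05 to 8.95, 9.42 and 9.31 (-0.80 ± 0.09), and the small heat shock protein Cryab fell by 0.78. Hsf1, the regulator of that response, was at 0.07 and was not called.

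Of 19 genes of the NRF2 antioxidant response, 11 were higher and none lower, with a median of 0.34. Slc7a11, already counted among the transporters, is one of them. Hmox1, heme oxygenase, rose from 9.76, 9.81 and 9.91 to 11.52, 10.94 and 11.28 (1.42 ± 0.12, limma, adjusted p = 1.5e-12). The efflux pump Abcc4 rose by 1.15, thioredoxin reductase Txnrd1 by 0.71, the ferritin gene Fth1 by 0.70 and the glutathione synthesis gene Gclc by 0.59. Nfe2l2, which encodes NRF2, was at -0.02 and was not called, and Nqo1, a commonly used marker of this response, was at -0.08 and was not called. Of 13 glutathione S-transferase genes 4 were higher and 3 lower, from Gsto1 (0.90) to Mgst3 (-0.72).

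Transcripts of ribosome production were higher. Of 25 genes of ribosome biogenesis, 24 were higher and none lower, with a median of 0.68. Ncl, nucleolin, rose from 12.73, 12.62 and 12.60 to 13.66, 13.40 and 13.48 (0.86 ± 0.09, limma, adjusted p = 1.7e-10), Rrp12 by 0.88, Nop56 by 0.84 and the RNA polymerase I subunit gene Polr1b by 0.36. Of 75 cytosolic ribosomal protein genes, 74 were higher, with a narrow range from 0.24 (Rpl37a, not called) to 0.78 (Rpl12). The vehicle samples themselves differed in this list, with means over its genes of -0.20, 0.01 and 0.19 relative to the vehicle mean, and the DKI samples were at 0.55, 0.42 and 0.34. With the matched slots, 41 of the 75 were called higher. Ribosomal protein genes have many near-identical pseudogenes, so the assignment of their reads is uncertain.

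Mitochondrial respiration genes moved little in comparison. Of 37 rows for nuclear complex I subunits 4 were higher and 1 lower, none by more than 0.31, and with the matched slots none was called higher. Of 36 nuclear genes of complexes II to V, 7 were higher and 3 lower, led by Uqcrq (0.70) and Cycs (0.41). All 13 genes encoded on the mitochondrial chromosome had differences below 0, and 4 were called: ATP6 (-0.78), COX2 (-0.68), CYTB (-0.63) and ATP8 (-0.45). COX2 measured 15.39, 15.11 and 15.22 with vehicle and 14.13, 15.24 and 14.36 with DKI, so that DKI replicate 2 lay among the vehicle samples. Over the 13 genes the mean was -0.40, -0.10 and -0.49 in DKI replicates 1, 2 and 3. Without DKI replicate 1 only CYTB was called (-0.64), while ATP6 was at -0.69 (adjusted p = 0.066), ATP8 at -0.45 (adjusted p = 0.098) and COX2 at -0.45 (adjusted p = 0.219).

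In glycolysis, 4 of 23 genes were higher and 8 lower, against 20.4% and 21.9% of all genes. The list median was -0.01, so the list as a whole hardly moved. Hk2, the inducible hexokinase, rose from 7.52, 7.42 and 7.33 to 9.14, 8.64 and 9.05 (1.53 ± 0.14, limma, adjusted p = 2.1e-11), while Hk1, the other main hexokinase, fell from 11.26, 11.01 and 11.12 to 10.41, 10.58 and 10.47 (-0.64 ± 0.07, adjusted p = 6.8e-09). The lactate transporter Slc16a1 rose by 0.67 and the glucose transporter Slc2a1 by 0.38. Ldha (-0.31), Pkm (-0.32) and Tpi1 (-0.34) were lower. Of 15 targets of the hypoxia-inducible factor only Vegfa (1.06) and Ndrg1 (0.72) were higher, and Egln1 (-0.17) was lower. Txnip, a glucose-responsive gene that restrains glucose uptake, fell from 10.56, 10.55 and 10.68 to 9.61, 9.89 and 9.70 (-0.87 ± 0.11).

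Cholesterol is made in 2 stages, the mevalonate branch up to squalene and the steps from squalene to cholesterol, and their genes are known to be controlled together by SREBP2 when sterols run low. These genes fell together with DKI. Of 11 in the mevalonate branch 10 were lower and none higher, with a median of -0.65, and of 11 from squalene on 9 were lower and none higher, with a median of -0.47. Hmgcs1, the first committed enzyme gene, lies on chromosome 13 from 119690379 to 119708260. It measured 12.40, 12.40 and 12.32 with vehicle and 11.40, 11.27 and 11.21 with DKI (-1.08 ± 0.08, limma, adjusted p = 1.1e-13). Hsd17b7 fell from 9.84, 9.86 and 9.83 to 9.0, 8.82 and 8.79 (-0.98 ± 0.09). Acat2 (-0.79), Mvk (-0.78), Mvd (-0.75), Idi1 (-0.72) and Dhcr7 (-0.72) followed. Ggps1 at -0.01, a branch enzyme of protein prenylation, was not called, nor were Sc5d (-0.20) and Ebp (-0.17). Here DKI replicate 1 was the least changed of the 3, with a mean over the mevalonate genes of -0.53 against -0.63 and -0.71. Without it 10 and 11 of the 11 genes were called lower.

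Srebf2, which encodes the regulator SREBP2, fell from 12.80, 12.80 and 12.85 to 12.43, 12.46 and 12.47 (-0.36 ± 0.07, limma, adjusted p = 3.9e-05). The sterol carrier gene Stard4 fell by 0.67 and the sterol sensor gene Insig1 by 0.61. In the sterol sensing list of 15 tested members, 3 genes were higher and 6 lower, the higher ones being Soat1 (0.65), which esterifies cholesterol, Npc1 (0.42), which exports it from lysosomes, and Scap (0.16). Of 16 genes of fatty acid synthesis and desaturation 10 were lower and none higher, with a median of -0.36. Acss2 (-0.77), Acsl3 (-0.71), Acly (-0.58) and Scd2 (-0.55) led them, while Acaca (-0.11) was not called.

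The sterol regulatory element, searched as TCACNCCAC on both strands in the same windows, was held by 1.4% of the tested genes with a window. It was found in 1 of 8 mevalonate genes (12.5%) and in none of the 9 genes with a window from squalene on. None of 10 sterol sensing, uptake and efflux genes and none of 13 fatty acid synthesis genes with a window held it. No match says only that these letters are absent from the window. The match is shown because Hmgcs1 had the largest fall among the sterol genes, with the element in capitals.
Hmgcs1 (chr13:119690171-119690266, plus strand, down to -1.08): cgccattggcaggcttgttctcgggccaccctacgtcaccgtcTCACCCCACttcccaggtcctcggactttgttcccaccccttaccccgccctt

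Lysosomal genes rose by small amounts and in number. Of 31 tested, 24 were higher and 2 lower, with a median of 0.28. Ctsl, cathepsin L, rose from 12.22, 12.21 and 12.20 to 13.19, 12.84 and 12.85 (0.75 ± 0.06, limma, adjusted p = 4.8e-12). Gla rose by 0.55, the channel gene Mcoln1 by 0.47 and Lamp1 by 0.40. Of their 3 regulators, Tfeb was lower (-0.50), and Mitf (0.30) and Tfe3 (0.17) were higher. Without DKI replicate 1, 18 lysosomal genes were called higher and Tfe3 was not called (adjusted p = 0.0674). Of 33 autophagy genes 8 were higher and 6 lower, near the 20.4% and 21.9% of all genes. With the matched slots these counts were 4 and 3. Sqstm1, the receptor p62, stood apart at 12.75, 12.69 and 12.77 with vehicle and 14.09, 13.72 and 13.88 with DKI (1.16 ± 0.09), followed by Gabarapl1 (0.61). Map1lc3b, which encodes LC3B, was at 0.03 and was not called.

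Cell division genes fell. All 22 mitosis genes were lower, with a median of -0.52 and a range from -0.16 (Mad2l1) to -0.85 (Mki67). Mki67 measured 11.60, 11.42 and 11.35 with vehicle and 10.34, 10.86 and 10.60 with DKI (-0.85 ± 0.11, limma, adjusted p = 3.5e-08). Plk1, a mitotic kinase, fell by 0.80 and the spindle motor gene Kif11 by 0.77. Without DKI replicate 1, and with the matched slots, 21 of 22 were called lower. DNA replication genes were mixed, 3 of 25 higher and 8 lower. Rrm2, a subunit of ribonucleotide reductase, fell by 0.68, while Mcm2 rose by 0.25. With the matched slots 3 of the 25 were called lower.

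Matrix genes fell as well. Of 19 collagen genes 14 were lower and none higher, with a median of -0.57. Col3a1 (-1.21), Col11a1 (-1.0), Col6a2 (-0.98) and Col1a1 (-0.87) led them, and Col1a1 measured 14.74, 14.50 and 14.67 with vehicle and 13.63, 13.87 and 13.75 with DKI. The basement membrane chains were less changed, with Col4a1 at -0.23 and Col4a2 at -0.13, the latter not called. Of 28 collagen processing and matrix genes 12 were lower and 1 higher, the collagen chaperone gene Serpinh1 (0.31). Thbs1, thrombospondin 1, fell from 14.81, 14.77 and 14.69 to 13.92, 13.93 and 13.67 (-0.91 ± 0.14, limma, adjusted p = 1.4e-06), Loxl2 by 0.80 and the fibrillin gene Fbn1 by 0.68. Fn1, fibronectin, was at -0.01 and was not called. The collagens Col3a1 and Col1a1 are also the mesenchymal markers whose summed level was lower with DKI, and a part of cell composition in these falls was not tested.

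Interferon-stimulated genes were lower in 18 of 29 cases and higher in 1 (B2m, 0.31), with a median of -0.53. This result rests in part on DKI replicate 1. Irf7, the inducible regulator of the response, measured 10.44, 10.07 and 10.39 with vehicle and 8.56, 9.57 and 9.60 with DKI (-1.06 ± 0.24, limma, adjusted p = 0.00043). Ifit1 measured 12.40, 12.13 and 12.37 with vehicle and 10.66, 11.71 and 11.61 with DKI (-0.98 ± 0.20). Over the 29 genes the mean was -1.03 in DKI replicate 1 and -0.37 and -0.30 in replicates 2 and 3. Without replicate 1, 9 genes were called lower, with Irf7 at -0.71 (adjusted p = 0.0176), and with the matched slots 6 were called lower, with Irf7 at -0.65 (adjusted p = 0.0602). The cyproheptadine sample from the same slot, replicate 1, was the lowest of its group at -1.19, against -0.71 and -0.56, whereas the meclizine sample from that slot, replicate 3, was at -0.32, between -0.18 and -0.42.

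**Figure D3:**
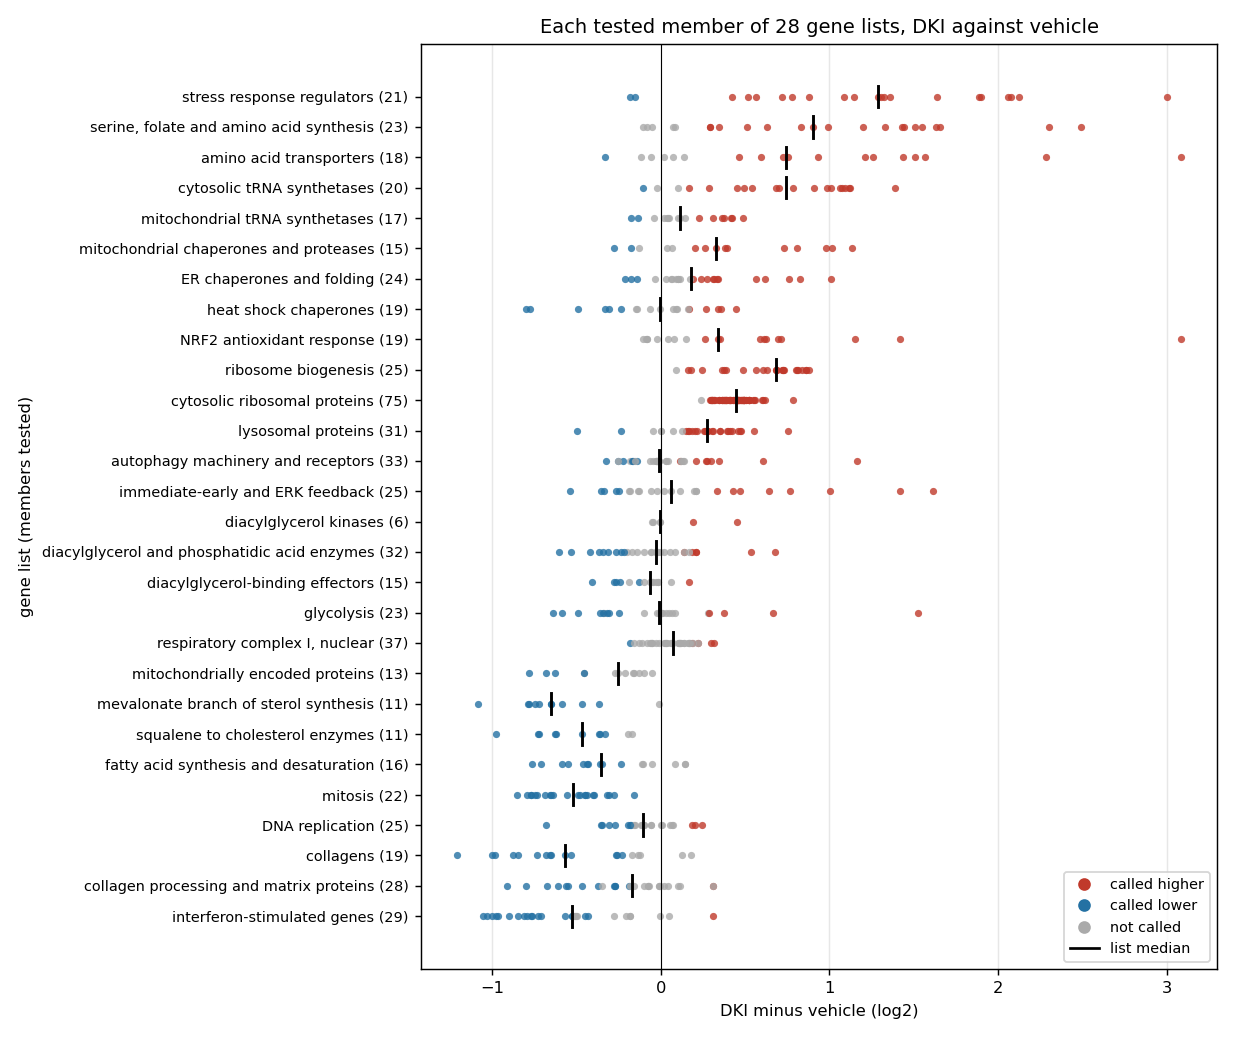
Difference between DKI and vehicle (log2, horizontal axis) of each tested member of 28 gene lists, with the number tested in brackets. Red points are called higher, blue points called lower, grey points not called, and black ticks are list medians, which run from 1.29 for stress response regulators to -0.65 for the mevalonate branch.

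Htt, which carries the repeat expansion in these cells, lies on chromosome 5 from 34761740 to 34912534 and measured 8.10, 8.10 and 7.92 with vehicle and 7.56, 7.74 and 7.77 with DKI. It was lower by 0.34 ± 0.08 on the log2 scale (limma, adjusted p = 0.0004), and the difference was -0.25 (adjusted p = 0.0353) with the matched slots.

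Meclizine, an antihistamine, was given at the same dose and for the same 24 h as DKI, but the collection slots differed. Meclizine replicates 1, 2 and 3 were collected on days 1, 2 and 3, at the times numbered 2, 3 and 1. Only meclizine replicate 3 shared its slot with a DKI sample, DKI replicate 1. Setting both compounds against each other asks which of the changes differed in size between them, without the vehicle samples. Of 13409 genes 1087 differed (8.11%), 577 higher in DKI (4.3%) and 510 lower (3.8%), and 2 and 3 of them by more than 1. The count depended on single libraries, with 316 genes without DKI replicate 1, 583 without meclizine replicate 2 and 709 without meclizine replicate 3, and with 14 genes when only these 6 samples were fitted. Hmgcs1 measured 11.87, 12.41 and 12.14 with meclizine and was 0.85 ± 0.08 lower in DKI (limma, adjusted p = 7e-09). Over the 11 mevalonate genes, the meclizine samples were at -0.26, 0.13 and -0.11 relative to the vehicle mean. Of the 11 mevalonate genes 9 were lower in DKI than in meclizine, and of the 11 from squalene on 10 were lower. Both counts were 9 without DKI replicate 1, which was the least changed DKI sample in both lists. Meclizine replicate 2 was the highest of its group in both, at 0.13 over the mevalonate genes and 0.22 over those from squalene on. The counts without that meclizine sample are not given here. Acat2 (-0.81), Mvd (-0.80), Idi1 (-0.77) and Hsd17b7 (-0.77) had the largest differences among these sterol genes after Hmgcs1.

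Other genes were higher in DKI than in meclizine. Cdsn measured 7.99, 7.52 and 8.05 with meclizine, 1.23 ± 0.24 below DKI (limma, adjusted p = 0.00096), and Slc3a2 measured 12.24, 11.79 and 11.95, 1.13 ± 0.15 below (adjusted p = 4.7e-06). Steap1 (0.86), the neurotrophic factor gene Gdnf (0.69), the synaptotagmin gene Syt7 (0.69) and Cth (0.65) followed. Gdnf measured 5.25, 5.42 and 5.34 with vehicle, 6.66, 6.17 and 6.34 with DKI and 5.67, 5.74 and 5.69 with meclizine. Of the 21 stress response regulators 7 were higher in DKI than in meclizine and 14 were not called, and 2 were higher without DKI replicate 1. This list averaged 0.95 above the vehicle mean with meclizine and 1.23 with DKI. Atf4 differed by 0.12 ± 0.09 (adjusted p = 0.5), which does not show that it was equal. Of 25 ribosome biogenesis genes 11 were higher in DKI, and 2 without DKI replicate 1. Olfr1219, an olfactory receptor gene at -1.69 (adjusted p = 0.02), varied widely within groups, from 10.38 to 12.22 in vehicle and from 11.60 to 13.18 in meclizine.

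Cyproheptadine, an antagonist of histamine and serotonin receptors, was collected in exactly the slots of DKI, so no difference of day or time separates these samples. Here 3834 genes differed (28.6%), 1967 higher in DKI (14.7%) and 1867 lower (13.9%). The sterol genes showed the widest gap. Of 11 mevalonate genes 10 were lower in DKI, and all 11 from squalene on were lower. Mvd measured 9.83, 9.89 and 9.99 with vehicle, 9.37, 9.04 and 9.08 with DKI and 10.81, 10.75 and 10.92 with cyproheptadine, so that the DKI samples lay below and the cyproheptadine samples above the vehicle samples. The difference between the compounds was -1.67 ± 0.10 (limma, adjusted p = 4.8e-15). Acat2 (-1.58), Insig1 (-1.48), Nsdhl (-1.45) and Lss (-1.45) were close to it.

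**Figure D4:**
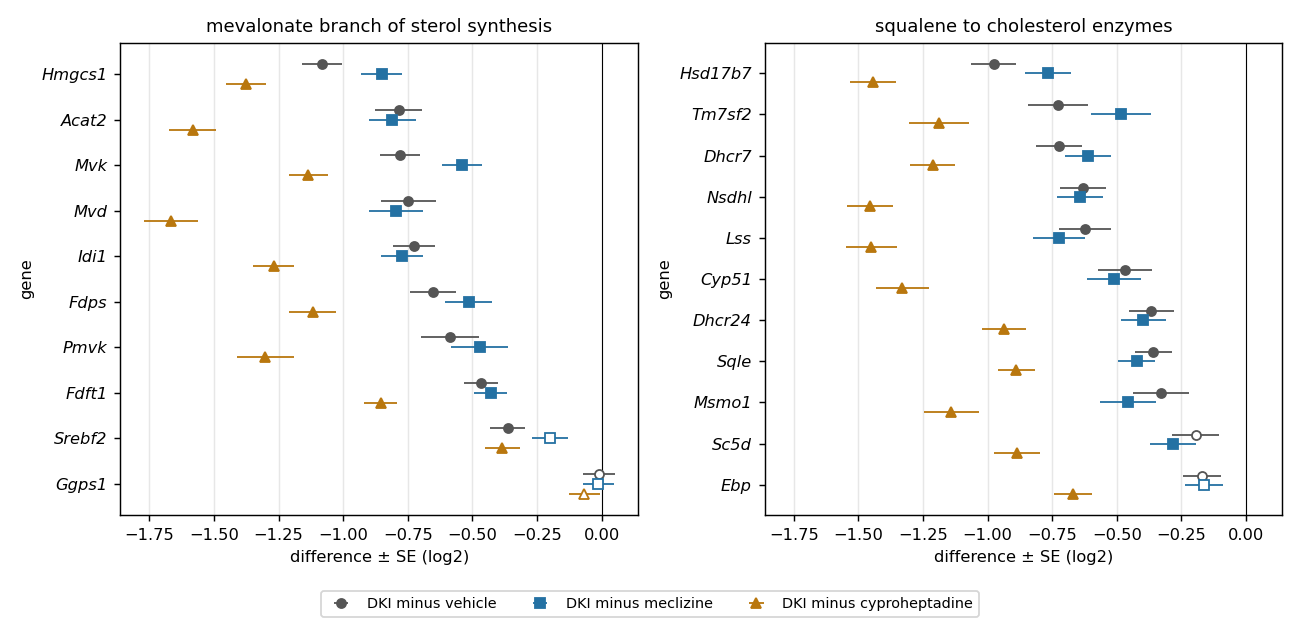
Difference (log2, horizontal axis) of DKI from vehicle (circles), meclizine (squares) and cyproheptadine (triangles) for tested genes of the mevalonate branch (left) and from squalene on (right), with bars of ± 1 SE from limma. Filled symbols passed an adjusted p under 0.05. The 3 comparisons share the DKI samples, and the triangles lie farthest below 0, at -1.67 for Mvd.

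Against cyproheptadine, glycolysis genes were lower in DKI in 18 of 23 cases and higher in none, mitosis genes lower in 21 of 22, proteasome genes lower in 18 of 32 and the endoplasmic reticulum genes lower in 12 of 24. Relative to the vehicle mean, glycolysis genes averaged 0.33 with cyproheptadine and -0.02 with DKI. Proteasome genes averaged 0.26 and 0.08, and endoplasmic reticulum genes 0.42 and 0.25. Mitosis genes averaged -0.10 with cyproheptadine and -0.55 with DKI. Hspa5 differed by 0.08 ± 0.08 (limma, adjusted p = 0.53). The immediate-early and ERK feedback genes were lower in 13 of 25, among them Fos (-0.52) and Egr1 (-0.50), while Myc was higher by 0.71. These 25 genes averaged 0.43 above the vehicle mean with cyproheptadine and 0.20 with DKI. The amino acid genes went the other way. Of 23 synthesis genes 12 were higher in DKI, of 18 transporters 11 and of 21 stress response regulators 12, and without DKI replicate 1 these counts were 6, 9 and 7. All 3 lists also lay above vehicle with the other compounds. Relative to the vehicle mean, synthesis genes averaged 0.92 with DKI, 0.72 with meclizine and 0.67 with cyproheptadine. In that order, transporters averaged 0.86, 0.59 and 0.46, and stress response regulators 1.23, 0.95 and 0.87. Lysosomal genes (0.24, 0.24 and 0.25) and collagens (-0.51, -0.37 and -0.38) also moved the same way with all 3 compounds. Ddit3 measured 9.85, 9.96 and 10.13 with cyproheptadine, 0.95 ± 0.12 below DKI (adjusted p = 2e-07), whereas Atf4 differed by 0.02 ± 0.09 (adjusted p = 0.89). Ugt1a6a (1.27), a glucuronosyltransferase gene that shares its locus and exons with its family, the adhesion molecule gene Vcam1 (1.22) and the RNA gene 2410006H16Rik (1.09) were among the 6 largest differences upward, after Cdsn (1.62) and Slc3a2 (1.34).

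**Figure D5:**
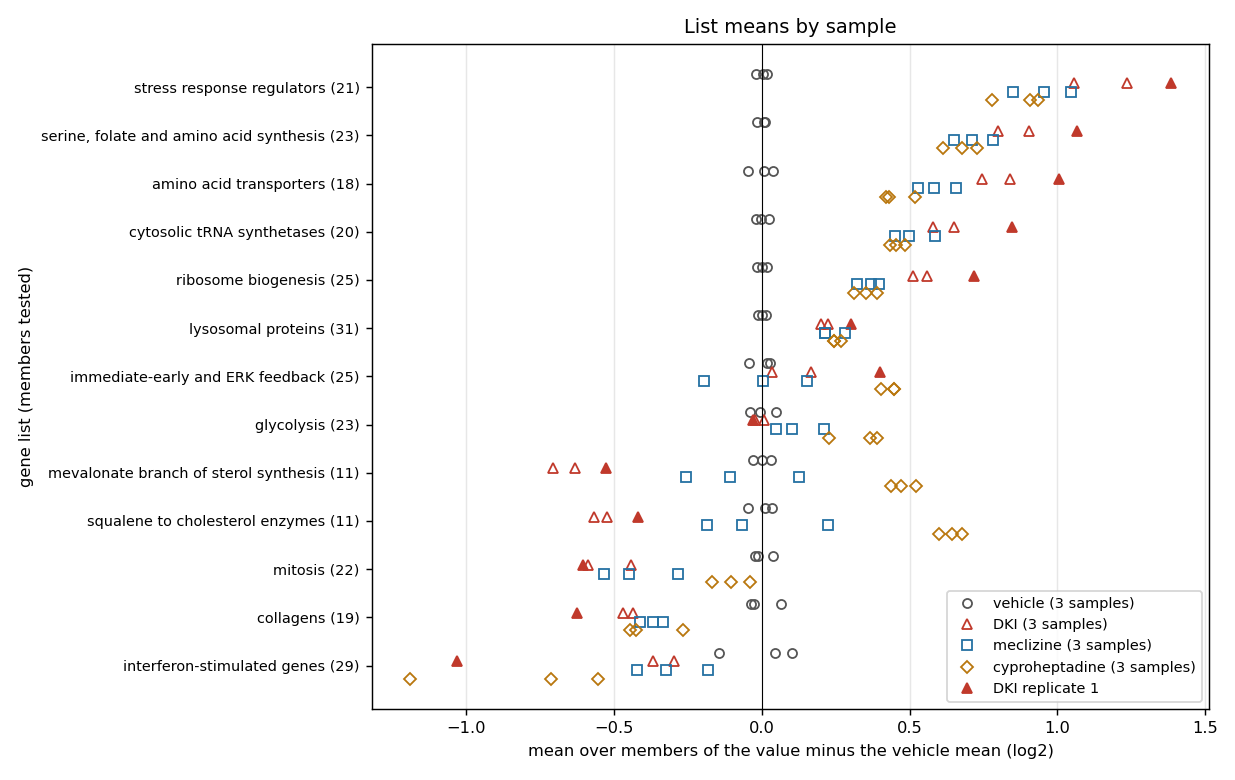
Mean over the members of a gene list of the value minus the vehicle mean (log2, horizontal axis) in each sample of vehicle, DKI, meclizine and cyproheptadine, for 13 lists with the number of tested members in brackets. The filled triangle is DKI replicate 1, which is at 1.38 in the stress response regulators and at -1.03 in the interferon-stimulated genes. The sterol lists separate the DKI samples, all below -0.4, from the cyproheptadine samples, all above 0.4.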

How the data were processed

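RNA was measured by poly(A) RNA-Seq (single-end, stranded kit). The authors used Trimmomatic 0.36 for trimming and RSEM with the GRCm38 p5 transcriptome for quantification, and deposited 1 normalized log2 abundance per gene and sample. The transformation is not given in the sources used here. Values of low genes hardly vary. The table holds no counts, so the depth is unknown and count models were not used. Of 27281 rows, 18178 carry a symbol, and the 13409 with a mean of at least 1 over 48 samples were tested. A linear model with 16 conditions and collection day was fitted to all 48 samples with limma 3.58.1 in R 4.3.3, with an abundance trend, 30 residual degrees of freedom and two-sided Benjamini-Hochberg adjusted p-values, called under 0.05. An exact permutation test of 3 samples against 3 cannot go below p = 0.1. Rows that list several symbols (284) were named by their gene ID. The procedure was tested on simulated data. Positions are from GENCODE M21 (GRCm38). Gene lists and members were chosen with earlier results of these data known. Named genes are the diacylglycerol kinases, Htt, list regulators, up to 4 called members per list with the largest differences, and the 12 (against another compound, 6) largest rises and falls with a mean of at least 6 and groups that do not overlap. Some genes are not reported here. Other members are named as examples chosen after their values were seen. Alternatives were other blocks, filters, sample sets, rescaling and leaving out each replicate. Every per-sample column was mapped to a sample.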

Additional observations from a re-analysis of the deposited data

Results flagged for a closer look

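Rows without a symbol were outside the comparisons above. Of 2205 such rows with a mean of at least 1, 259 (11.7%) were called between DKI and vehicle when tested with the other genes, 160 higher and 99 lower. The largest rise was of mt-Rnr1, the mitochondrial 12S ribosomal RNA. It measured 11.87, 11.42 and 11.85 with vehicle and 13.30, 13.30 and 13.17 with DKI, a difference of 1.53 ± 0.34 (limma, adjusted p = 0.000445). mt-Rnr2, the 16S ribosomal RNA of the same transcript, rose by 0.98 ± 0.21 (adjusted p = 0.000258), while all 13 protein-coding genes of the mitochondrial chromosome had differences below 0. The libraries were poly(A) selected, and whether this bears on the ribosomal RNA rows was not tested. The largest fall chosen in the same way was of Gm43305, at -0.79 ± 0.13 (adjusted p = 6.02e-06).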

How the results depend on the processing

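Of 208 named genes, none changed direction under any alternative while being called, and 35 were no longer called against vehicle under at least one, 30 of them with matched slots and 18 without DKI replicate 1. With the samples of both conditions alone, DKI against vehicle gave 3393 genes (1673 higher, 1720 lower), DKI against meclizine 14 (5 and 9), and DKI against cyproheptadine 1268 higher. With matched slots 1903 genes were lower than in vehicle. A minimum mean of 8, which tests fewer genes, gave 1701 genes higher than in vehicle, 364 higher than in meclizine and 1193 higher than in cyproheptadine. Leaving out each replicate gave 4551 to 5509 genes against vehicle (2223 to 2642 higher, 2328 to 2867 lower), 316 to 1549 against meclizine (155 to 777 higher, 161 to 772 lower) and 3084 to 3488 against cyproheptadine (1592 to 1773 higher, 1467 to 1715 lower). The replicate number as a block in place of the day gave 5771, 1171 and 3856 genes. Samples of DKI and vehicle with the same number had correlations of their deviations from the group means of -0.199, -0.191 and -0.127. For DKI and cyproheptadine, whose slots match, these were 0.362, 0.0166 and 0.257, and for DKI and meclizine 0.188, -0.0268 and 0.203. Deviations from a mean of 3 samples depend on each other, so these values cannot settle whether the numbers pair the samples. The cause of the changes in the counts was not tested. The depth is unknown, so no counting error limits are given.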

Other observations

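The counts of the remaining lists stand beside 20.4% of all genes called higher and 21.9% lower. Of 16 clock genes 5 were higher and 4 lower with DKI. Ciart, a repressor of the clock, measured 5.22, 5.25 and 5.24 with vehicle and 7.39, 6.75 and 6.98 with DKI (1.80 ± 0.12, limma, adjusted p = 1.6e-14), and Cry1 rose by 0.72, while Tef (-0.47) and Per3 (-0.39) were lower. Of 19 targets of p53, 8 were higher and 2 lower, from Aen (0.64) to Sesn1 (-0.54), and Cdkn1a, which encodes p21, was at 0.16 and was not called. In the BCL2 family the pro-apoptotic genes divided, with Pmaip1 (0.43) and Bbc3 (0.42) higher and Bmf (-0.75) and Bcl2l11 (-0.49) lower.

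Of 10 chemokine and cytokine genes 4 were higher, led by Cxcl1 (0.68). Of 17 imprinted genes 3 were higher and 3 lower, and beside Peg10 these were Impact (0.71), Plagl1 (0.57), Phlda2 (0.38), Gnas (-0.18) and Mest (-0.52). Impact encodes an inhibitor of the eIF2 kinase GCN2. Of 6 metallothionein and zinc genes 3 were higher, and Mt1 and Mt2 were not called without DKI replicate 1 (adjusted p = 0.18 and 0.0672). Of 32 proteasome genes, 6 were higher and 2 lower. Of 17 citric acid cycle genes 3 were higher and 4 lower, none beyond 0.42. Of 9 tested amine and sigma receptor genes, Tmem97, the sigma-2 receptor, was higher (0.36) and Adra1b was lower (-0.27).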
